A study of Mus musculus with 12 samples.

Results

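Matrix metalloproteinases (MMPs), the ADAMTS proteases and their inhibitors, the TIMPs, were examined in adult neural stem/progenitor cells (aNSPCs) exposed to NAD+. The genes were taken by name: every gene called Mmp, Adamts or Timp with its number was included, which gave 46 of the 55401 genes listed, 23 of them MMPs, 19 ADAMTS genes and 4 TIMPs. The family of ADAMTS-like proteins, which lack the protease, was not included.

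MMPs are zinc-dependent proteases that cut collagens, proteoglycans and other proteins of the extracellular matrix. Most are secreted as inactive precursors, whereas the membrane-type MMPs stay on the cell surface, and several of these are activated by furin-like convertases. ADAMTS proteases are secreted and carry thrombospondin repeats. Some of them cut lecticans such as versican, neurocan and brevican, which fill much of the space between neural cells, and others process procollagen. TIMPs bind the active site of these enzymes and block it, and Timp3, which is held in the matrix, is the one known best for blocking ADAMTS proteases as well.

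The cells came from the forebrain of adult C57BL/6 mice aged 8 to 10 weeks, and were grown in culture with EGF and FGF-2. RNA-seq was done in 4 groups of 3 samples. Ctrl cells and cells given 1 mM NAD+ were compared under proliferating conditions, and the same pair under differentiation conditions, in which the study's methods add 1 µM retinoic acid and 5 µM forskolin. Groups were read from the sample titles, because the treatment label of all 12 samples says untreated. The study calls the samples biological repeats, and neither the number of mice behind a culture nor the time of NAD+ exposure before RNA collection is given in the sources used here. Levels are FPKM, fragments scaled to transcript length and to the mapped fragments of the sample, so they are corrected for gene length and can be set side by side between genes.

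Summed FPKM per sample lay between 308828 and 349649 in 11 samples and at 363330 in Ctrl, proliferating replicate 1, which stood apart from the other samples. All 8 astrocyte markers and 7 of 8 neural stem/progenitor markers had a mean FPKM of at least 1 in each group. None of the 8 markers each of microglia, endothelial cells and fibroblasts or mural cells reached that level in any group. The summed microglia markers ranged from 0 to 0.49 FPKM, endothelial markers from 0.15 to 0.9, and fibroblast and mural markers from 0.45 to 1.74. Markers of the neural cell types differed between groups. Summed astrocyte markers ranged from 1462 to 1633 FPKM in Ctrl and from 1911 to 1942 in NAD+ cells under differentiation conditions, and summed oligodendrocyte lineage markers from 1296 to 1420 in Ctrl, proliferating and from 415.1 to 434.3 in NAD+, differentiation. With limma, the astrocyte markers Gfap, Slc1a3 and Slc1a2 rose and Aldh1l1 and Aldoc fell with NAD+ under differentiation conditions. The part of these differences in the results below was not tested. In such bulk samples, fewer cells of a type and less RNA per cell cannot be told apart.

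Of the 46 genes, 8 were listed at 0 FPKM in every sample, namely Mmp1a, Mmp1b, Mmp7, Mmp10, Mmp20, Mmp27, Adamts13 and Adamts18. The depth behind the values is unknown, because the FPKM values are rounded to 0.01 and hold no counts, so a gene listed at 0 may still have had a few reads. In 20 genes the mean was at least 1 FPKM in at least 1 group, and in 5 of them (Mmp15, Timp2, Timp3, Timp4 and Adamts1) it reached 10. These 20 and 6 further genes that passed the test in at least 1 comparison are described one by one. The remaining 12 genes above 0 peaked between 0.01 and 0.27 FPKM in any sample, among them the gelatinase Mmp9, whose highest value was 0.16 in Ctrl, proliferating replicate 1.

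Of the 20 genes that were not described one by one, 10 lay together on the genome. A stretch of chromosome 9 (mm10, chr9:7272514-7699585) holds 10 MMPs, namely Mmp13, Mmp12, Mmp1b, Mmp3, Mmp1a, Mmp10, Mmp8, Mmp27, Mmp20 and Mmp7, which include the collagenases and stromelysins. Across all 12 samples their highest level was 0.08 FPKM, reached by Mmp13, and 6 of the 10 were at 0 throughout. RefSeq (GRCm38.p6) gave promoter windows for 32 of the 46 genes, each running from 250 bases before to 50 after the start. In the 250 bases before the start, 3 motifs were searched on both strands. The 32 genes had 35 windows, and a gene was counted when any of its windows held the motif, whereas the shares for all genes are of single windows. The AP-1 motif, TGANTCA, was found in 8 of the 32 genes, all of them in the chromosome 9 stretch, against 6.75% of 32851 windows of all genes. The TATA box was searched as the letters TATAAA and found in 9 of the 32, 7 of them in the stretch and the others being Adamts1 and Mmp21, against 12.4% of all windows. For the GC box the search letters were GGGCGG, which were found in 16 of the 32, none in the stretch, against 32.7% of all windows. A match here is a description of letters and not a bound site.

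The 250 bases before the start are shown for 2 genes of the stretch that were at or near 0 (Mmp3 and Mmp13) and for 3 expressed genes on which the results turn (Timp1, Timp4 and Mmp24). Capitals mark the AP-1, GC box and TATA box letters on either strand, and each sequence is written 5′ to 3′ on the gene's own strand.
Mmp3, chr9:7445572-7445821, plus strand: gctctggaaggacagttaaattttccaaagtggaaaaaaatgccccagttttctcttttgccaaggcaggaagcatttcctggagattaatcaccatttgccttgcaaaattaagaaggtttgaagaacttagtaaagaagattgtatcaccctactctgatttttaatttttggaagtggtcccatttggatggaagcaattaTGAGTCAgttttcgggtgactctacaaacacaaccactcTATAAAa
Mmp13, chr9:7272264-7272513, plus strand: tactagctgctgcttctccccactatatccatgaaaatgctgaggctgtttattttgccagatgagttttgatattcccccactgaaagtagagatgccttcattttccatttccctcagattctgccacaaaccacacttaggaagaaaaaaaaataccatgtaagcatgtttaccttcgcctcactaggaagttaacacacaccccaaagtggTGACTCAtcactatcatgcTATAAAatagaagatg
Timp1, chrX:20869916-20870165, plus strand: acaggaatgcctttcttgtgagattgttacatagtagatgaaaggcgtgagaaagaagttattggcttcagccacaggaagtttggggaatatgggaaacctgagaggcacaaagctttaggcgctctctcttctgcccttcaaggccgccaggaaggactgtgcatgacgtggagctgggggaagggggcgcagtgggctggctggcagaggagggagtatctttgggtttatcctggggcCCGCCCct
Timp4, chr6:115252206-115252455, minus strand: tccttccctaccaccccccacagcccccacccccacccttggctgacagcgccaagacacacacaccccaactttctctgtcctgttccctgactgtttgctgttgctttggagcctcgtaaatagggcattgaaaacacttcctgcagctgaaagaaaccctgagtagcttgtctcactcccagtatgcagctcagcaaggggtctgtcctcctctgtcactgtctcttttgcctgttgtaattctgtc
Mmp24, chr2:155775092-155775341, plus strand: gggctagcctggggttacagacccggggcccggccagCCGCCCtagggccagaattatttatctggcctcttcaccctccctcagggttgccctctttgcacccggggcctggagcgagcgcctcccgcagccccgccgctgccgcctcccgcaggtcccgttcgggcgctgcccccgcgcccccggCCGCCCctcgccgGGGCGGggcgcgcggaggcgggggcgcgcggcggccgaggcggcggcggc
Mmp3 and Mmp13 each had 1 AP-1 match and 1 TATA match, and a GC content of 37.6% and 40.4%. Mmp24 had 3 GC box matches and a GC content of 79.2%, Timp1 had 1 GC box match, and Timp4 had none of the 3 motifs. The median GC content of the 32 genes' windows was 55.2%, against 52.4% for all windows.

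In NAD+-exposed proliferating cells, the inhibitors Timp1 and Timp2 stood higher and Timp4 lower than in Ctrl cells, with no overlap between the groups for any of the 3, but no gene of the 46 passed the test over all genes. Timp1, a secreted inhibitor of many MMPs, was at 3.19, 3.26 and 3.79 FPKM in Ctrl and at 9.98, 7.76 and 4.99 in NAD+ cells. The NAD+ samples differed among themselves by 2.5 FPKM (SD, n = 3), and the mean was 2.22-fold that of Ctrl. Timp2, which also takes part in the activation of Mmp2 on the cell surface by Mmp14, was at 28.51, 27.51 and 31.74 FPKM in Ctrl and at 46.92, 42.93 and 42.46 in NAD+ cells, 1.51-fold higher. Timp4 was at 43.95, 44.35 and 46.05 FPKM in Ctrl and at 34.36, 31.98 and 32.19 in NAD+ cells, 1.36-fold lower. Timp3 overlapped between the groups, at 25.41 to 30.32 FPKM in Ctrl and 25.35 to 26.77 in NAD+ cells. The plot of TIMP levels by sample shows these values.

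**Figure D1:**
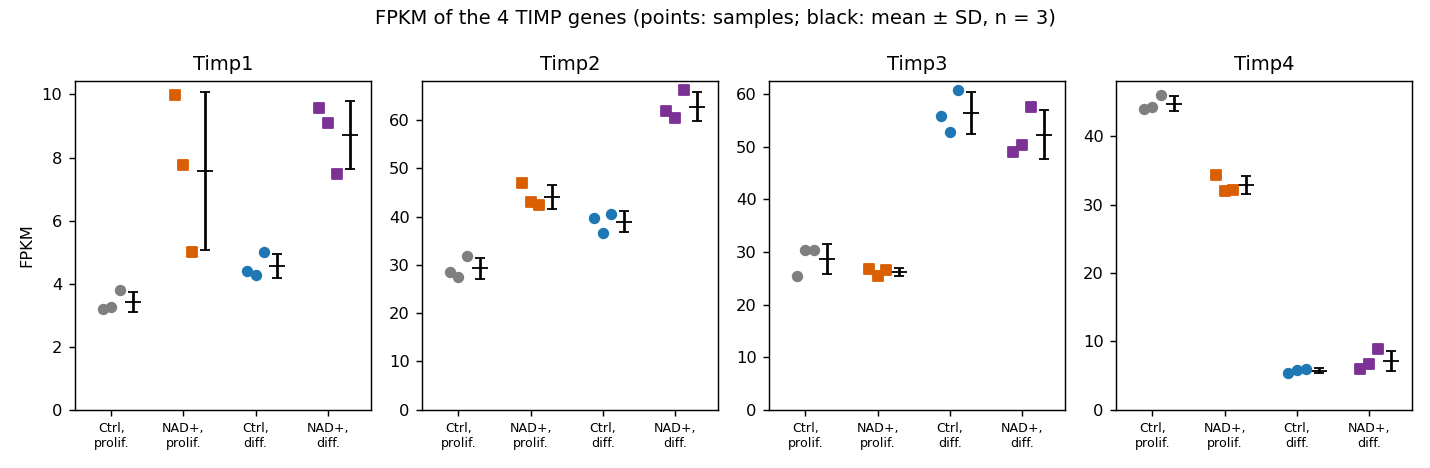
FPKM of Timp1, Timp2, Timp3 and Timp4 in each of the 12 samples (y axes, FPKM, linear from 0), with 3 samples per group as points and the group mean ± SD in black. Timp1 and Timp2 lie higher with NAD+ than in Ctrl under both conditions without overlap, whereas Timp4 falls from 43.95 to 46.05 in proliferating Ctrl cells to 5.34 to 5.93 in differentiation Ctrl cells.

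The test was limma on log2(FPKM + 0.1) after dropping genes whose mean FPKM was under 0.1, two-sided, with Benjamini-Hochberg adjustment over all genes tested, so fold changes from it understate the change of low genes. Under proliferating conditions 0 of the 26 members tested passed an adjusted p of 0.05, against 27 of 18597 genes (0.145%). At an unadjusted p under 0.05 there were 5 (Timp2, Timp4, Timp1, Adamts1 and Adamts14), or 19.2% of those tested against 15.4% of all genes. The log2 fold changes were 0.59 for Timp2 (limma adjusted p = 0.06769), -0.45 for Timp4 (0.08022) and 1.08 for Timp1 (0.1388). When the spread was estimated from all 12 samples, Timp1 and Timp2 passed. The study's rule for differentially expressed genes is a mean change over 2-fold with an unadjusted p under 0.05. It was applied here with the limma p, which called more genes than the study reports, so these are not the study's own calls. By this rule Timp1 was the 1 member called of the 26 tested, a share near the 3.01% of all genes. Groups did not overlap in 8 of the 26 members, 4 higher and 4 lower with NAD+, or 30.8% against 24.1% of all genes (15.5% higher and 8.59% lower). The median log2 fold change of the members was -0.01, beside 0.07 for all genes. With 3 samples against 3, an exact permutation test of 1 gene cannot give a p below 0.1.

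Among the proteases of proliferating cells, Mmp15 was by far the most abundant. Mmp15, a membrane-type MMP, was at 82.92, 113.96 and 123.48 FPKM in Ctrl and at 102.55, 129.29 and 125.05 in NAD+ cells, and the groups overlapped (log2 fold change 0.17, 95% interval -0.23 to 0.57). It made up 87.3% ± 1.86 of the summed MMP FPKM in Ctrl and 89.0% ± 2.43 in NAD+ cells (SD, n = 3). Adamts1, a secreted protease that cuts versican and aggrecan, was at 4.75, 6.62 and 6.18 FPKM in Ctrl and at 3.81, 4.46 and 4.08 in NAD+ cells, without overlap and 1.42-fold lower, but with a limma adjusted p of 0.2223. Adamts14, a procollagen-processing protease, was at 0.84, 1.6 and 1.33 FPKM in Ctrl and at 2.1, 2.23 and 2 in NAD+ cells, also without overlap (limma adjusted p = 0.2305). Mmp14 and Mmp16, further membrane-type MMPs, stood at 2.64 to 5.02 and 1.42 to 3.53 FPKM across these 6 samples. Ctrl replicate 1 held the lowest Mmp15 and Mmp16 of its group and the highest Mmp2, Mmp9 and Mmp14.

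Under differentiation conditions, NAD+ exposure changed 7 members. Timp1, Timp2, Mmp24 and Adamts1 rose, and Adamts4, Adamts9 and Adamts12 fell, each by less than 2-fold in mean FPKM. These were 25.9% of the 27 members tested, against 1357 of 19611 genes (6.92%), with 2.27% of all genes higher and 4.65% lower. In none of the 7 did the Ctrl and NAD+ samples overlap, which is no separate support, as the same values gave the calls. Of the 4 that rose 2 were TIMPs, and the 3 that fell were ADAMTS proteases.

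Timp2 was at 39.72, 36.56 and 40.61 FPKM in Ctrl and at 61.79, 60.35 and 66.12 in NAD+ cells. The lowest NAD+ sample stood well above the highest Ctrl sample, and the log2 fold change was 0.69 ± 0.06 (SE; limma adjusted p = 0.004943), a ratio of means of 1.61. Timp1 was at 4.4, 4.27 and 5.01 FPKM in Ctrl and at 9.58, 9.08 and 7.49 in NAD+ cells, a log2 fold change of 0.92 ± 0.12 (SE; limma adjusted p = 0.01081) and a ratio of means of 1.91. Timp1 lies inside Syn1 on the opposite strand (chrX:20870166-20874735), with no exonic bases in common, and Syn1 ranged from 3.1 to 4.69 FPKM in Ctrl and 3.33 to 4.75 in NAD+ cells. Timp4 was at 5.34, 5.87 and 5.93 FPKM in Ctrl and at 5.96, 6.66 and 8.83 in NAD+ cells, higher in each NAD+ sample than in any Ctrl sample but short of the threshold (limma adjusted p = 0.2759). Timp3 overlapped, at 55.77, 52.75 and 60.74 FPKM in Ctrl and 48.97, 50.28 and 57.64 in NAD+ cells (log2 fold change -0.11, 95% interval -0.31 to 0.09). The 4 inhibitors together summed to 105.7 ± 6.43 FPKM in Ctrl and 130.9 ± 7.94 in NAD+ cells (SD, n = 3), and Timp2 took the place of Timp3 as the most abundant of them, at 48.0% of the sum against 36.9% in Ctrl.

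Mmp24, a membrane-type MMP known from the nervous system, where it cuts N-cadherin, was at 3.51, 3.02 and 3.72 FPKM in Ctrl and at 5.86, 5.16 and 5.53 in NAD+ cells. The groups did not overlap, with a log2 fold change of 0.68 ± 0.10 (SE; limma adjusted p = 0.01757). Of its exonic bases, 13.6% are shared with BC029722 on the opposite strand, and the library kit is not stated to keep the strand, so reads there cannot be assigned to one of the genes. BC029722 ranged from 11.14 to 12.98 FPKM in Ctrl and from 10.82 to 13.84 in NAD+ cells, and so overlapped between the groups. Mmp15 did not differ beyond its spread, at 22.53, 21.73 and 23.62 FPKM in Ctrl and 24.67, 22.13 and 21.69 in NAD+ cells (log2 fold change 0.01, 95% interval -0.15 to 0.17). Mmp23, another MMP anchored in the membrane, was at 0.15, 0.28 and 0.19 FPKM in Ctrl and at 0.55, 0.41 and 0.46 in NAD+ cells. It was 2.29-fold higher in mean, but its limma adjusted p was 0.08489. By the study's rule with the limma p, Mmp23 was the 1 member called of the 27 tested, a share near the 4.05% of all genes. Mmp28 was at 1.15, 1.2 and 0.87 FPKM in Ctrl and at 1.85, 1.84 and 1.2 in NAD+ cells, where the lowest NAD+ sample equalled the highest Ctrl sample (limma adjusted p = 0.1832). Mmp2, Mmp11, Mmp14, Mmp16, Mmp17 and Mmp19 had limma adjusted p values from 0.2012 to 0.7909. Of these, Mmp14 and Mmp16 were lower and Mmp19 was higher with NAD+ without overlap, whereas Mmp2, Mmp11 and Mmp17 overlapped.

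Among the ADAMTS proteases, Adamts1 was the one that rose. It was at 8.26, 7.78 and 7.11 FPKM in Ctrl and at 10.05, 9.9 and 10.75 in NAD+ cells, a log2 fold change of 0.40 ± 0.08 (SE; limma adjusted p = 0.03158). Its share of the summed ADAMTS FPKM was 27.3% ± 0.457 in Ctrl and 40.4% ± 1.45 in NAD+ cells (SD, n = 3). Adamts5, its neighbour on chromosome 16 and a protease of aggrecan, was at 0.76, 0.64 and 0.75 FPKM in Ctrl and at 0.93, 0.95 and 0.98 in NAD+ cells, without overlap but with a limma adjusted p of 0.1812.

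Adamts9, which cuts versican and aggrecan, was at 7.18, 7.14 and 7.17 FPKM in Ctrl and at 5.29, 4.72 and 4.12 in NAD+ cells. The Ctrl samples agreed within 0.021 FPKM (SD) and the log2 fold change was -0.60 ± 0.10 (SE; limma adjusted p = 0.02216). Adamts4, another protease of aggrecan and brevican, was at 3.74, 4.75 and 3.56 FPKM in Ctrl and at 2.58, 2.48 and 1.92 in NAD+ cells, a log2 fold change of -0.76 ± 0.16 (SE; limma adjusted p = 0.04155). Adamts12, which cuts cartilage oligomeric matrix protein (COMP), was at 1.55, 1.53 and 1.45 FPKM in Ctrl and at 0.95, 0.97 and 0.75 in NAD+ cells, a log2 fold change of -0.71 ± 0.14 (SE; limma adjusted p = 0.03702). Adamts7, the other COMP protease, had overlapping groups at 0.84 to 1.26 and 0.56 to 0.92 FPKM. Adamts16 and Adamts17 did not overlap and were lower with NAD+, at 0.44 to 0.55 against 0.23 to 0.35 and at 0.52 to 0.76 against 0.29 to 0.48 FPKM, with limma adjusted p values of 0.1428 and 0.1891. Adamts2, Adamts6, Adamts10 and Adamts14 overlapped between the groups.

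**Figure D2:**
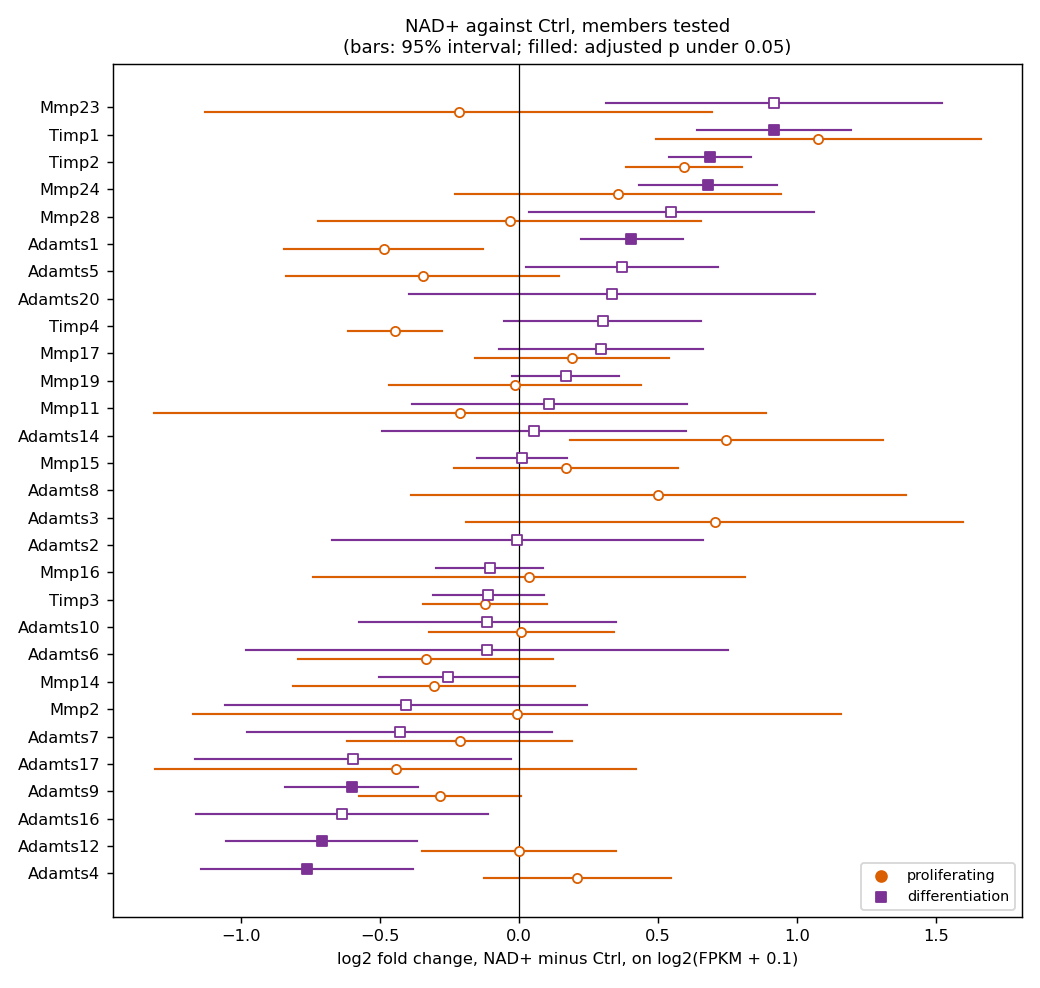
The x axis gives the log2 fold change of NAD+ against Ctrl, on log2(FPKM + 0.1), with 95% limma intervals as bars for each member tested, circles for proliferating and squares for differentiation conditions. Filled symbols mark an adjusted p under 0.05, which 7 members reached under differentiation conditions and 0 under proliferating conditions.

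At an unadjusted p under 0.05 there were 13 of 27 members (48.1%, against 24.2% of all genes), 7 higher and 6 lower, and groups did not overlap in 15 (55.6% against 30.7%), 8 higher and 7 lower, where 9.68% of all genes were higher and 21.1% lower. The median log2 fold change of the members was 0.01, beside -0.09 for all genes. Leaving out any 1 of the 6 samples reduced the 7 calls to between 1 and 3, with Ctrl replicate 1 leaving 1, and Timp2 was the member called each time. Adamts4 and Adamts12 also lost their call with either other scaling of the samples and with no filter on low values, and kept their direction.

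Lists of related genes were read beside the members, chosen as the members were with earlier results of these data known. Under proliferating conditions none of the regulators of these enzymes, the ADAMTS-like proteins, the membrane ADAM proteases or the matrix substrates passed the test with limma, of 14, 4, 10 and 10 tested. Under differentiation conditions, where 6.92% of all genes passed (2.27% higher and 4.65% lower), 1 of 14 regulators rose and 0 fell. This was Pcsk6, a convertase that cuts precursor proteins, at 12.8 ± 0.347 FPKM in Ctrl and 17.6 ± 0.221 in NAD+ cells (SD, n = 3; limma adjusted p = 0.007409). Of 5 ADAMTS-like proteins 1 fell, Adamtsl5, by 0.93 on the log2 scale, and of 10 ADAM proteases 1 fell, Adam11, a member without protease activity, by 0.97. Of the 10 matrix substrates tested, a list of lecticans, perineuronal net genes and others such as Reln, 1 rose and 4 fell. Vcan (versican) fell from 19.1 ± 0.825 to 10.2 ± 0.625 FPKM (limma adjusted p = 0.003605), and Tnr (tenascin-R) from 84.9 ± 5.97 to 45.7 ± 5.85 (0.008094). Reln (reelin) fell from 8.15 ± 0.439 to 5.2 ± 0.227 FPKM (limma adjusted p = 0.008213), Tnc (tenascin-C) fell by 1.60 on the log2 scale (0.02067), and Ncan (neurocan) rose from 115.8 ± 1.91 to 142.5 ± 2.21 (0.01268).

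Larger differences were seen between the culture conditions. Between Ctrl cells of the 2 conditions, Timp4, Mmp15 and Adamts7 were several-fold lower and Mmp24, Adamts9 and Timp3 higher under differentiation conditions. Of 26 members tested, 17 passed, 11 higher and 6 lower, or 65.4% against 56.7% of all 19498 genes, with 25% of all genes higher and 31.6% lower. Between the NAD+ groups 19 of 26 passed, 12 higher and 7 lower, or 73.1% against 58.4% of all genes, with 20.8% of all genes higher and 37.6% lower. The median log2 fold change was 0.33 in the Ctrl and 0.38 in the NAD+ comparison, beside -0.06 and -0.20 for all genes. The conditions were deposited as separate tables, and it is not stated whether they were scaled together. Scaling all 12 samples by median ratios moved the median of all genes from -0.20 to 0.05 in the NAD+ comparison and from -0.06 to 0.06 in the Ctrl comparison, and no called member changed direction.

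Among the inhibitors, Timp4 was 7.84-fold lower in differentiation Ctrl cells than in proliferating Ctrl cells (log2 fold change -2.95 ± 0.12, SE; limma adjusted p = 1.367e-08) and 4.59-fold lower between the NAD+ groups (-2.20 ± 0.12). It went from 42.2% of the summed TIMP FPKM in proliferating Ctrl cells to 5.42% in differentiation Ctrl cells. Timp3 took the opposite course, from 28.7 ± 2.83 to 56.4 ± 4.03 FPKM (SD, n = 3; log2 fold change 0.98, limma adjusted p = 4.592e-06), which was 27.0% and 53.4% of the sum. The sum itself was 106.1 ± 5.44 and 105.7 ± 6.43 FPKM. Timp2 rose by 0.41 in the Ctrl and 0.51 in the NAD+ comparison on the log2 scale, and Timp1 did not pass in either, with limma adjusted p values of 0.1149 and 0.3276. Timp1, Timp3 and Timp4 each lie within a synapsin gene on the opposite strand. Syn2, around Timp4, was also lower, at 6.11 to 7.05 FPKM in differentiation Ctrl cells against 10.33 to 13.43 in proliferating Ctrl cells, and shares 1.53% of Timp4's exonic bases. Syn3, around Timp3, shares 21.3% but did not exceed 0.3 FPKM in any sample.

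**Figure D3:**
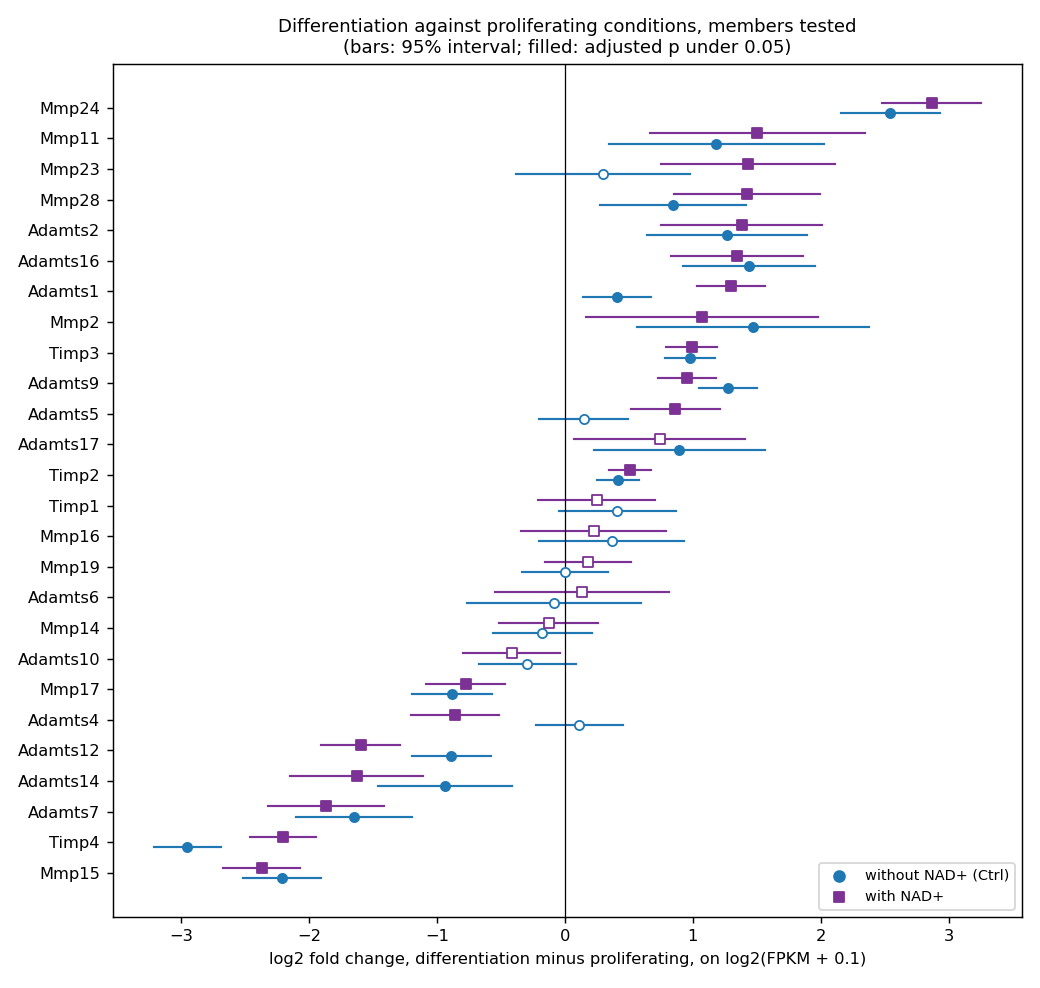
The x axis gives the log2 fold change of differentiation against proliferating conditions, on log2(FPKM + 0.1), with 95% limma intervals as bars, circles for Ctrl and squares for NAD+ cells. Filled symbols mark an adjusted p under 0.05, with Timp4 and Mmp15 at the low end (-2.95 and -2.21 in Ctrl) and Mmp24 at the high end (2.54).

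Membrane-type MMPs moved in both directions, and Mmp15 remained the most abundant. Mmp15 fell from 106.8 ± 21.2 FPKM in proliferating Ctrl cells to 22.6 ± 0.949 in differentiation Ctrl cells (SD, n = 3; log2 fold change -2.21 ± 0.14, SE; limma adjusted p = 2.708e-07), and its share of all MMP FPKM from 87.3% to 54.0%. Mmp24 rose from 0.41, 0.47 and 0.65 FPKM to 3.51, 3.02 and 3.72, which was 6.70-fold (log2 fold change 2.54 ± 0.18, SE; limma adjusted p = 5.661e-07), and 8.15-fold between the NAD+ groups. Its antisense neighbour BC029722 did not rise, at 13.8 to 14.87 FPKM in proliferating and 11.14 to 12.98 in differentiation Ctrl cells. Mmp17 fell, from 1.66 ± 0.148 to 0.86 ± 0.123 FPKM (limma adjusted p = 2.839e-04), and Mmp14 and Mmp16 did not pass. Mmp2, Mmp11 and Mmp28 rose by 1.47, 1.18 and 0.84 on the log2 scale, from means of 0.23, 0.583 and 0.567 FPKM. Mmp11 shares 5.58% of its exonic bases with Chchd10, which was lower in differentiation Ctrl cells (1.63 to 1.96 against 8.54 to 14.59 FPKM), and Mmp28 shares 466 of its 3874 exonic bases with 1700020L24Rik (0.63 to 1.07 against 0.47 to 0.76 FPKM). Mmp19 did not pass (log2 fold change 0.00, 95% interval -0.34 to 0.34) and shares 22.3% of its exonic bases with Tmem198b. Summed over the 23 genes, MMP FPKM went from 122.0 ± 22.1 to 41.9 ± 1.08.

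**Figure D4:**
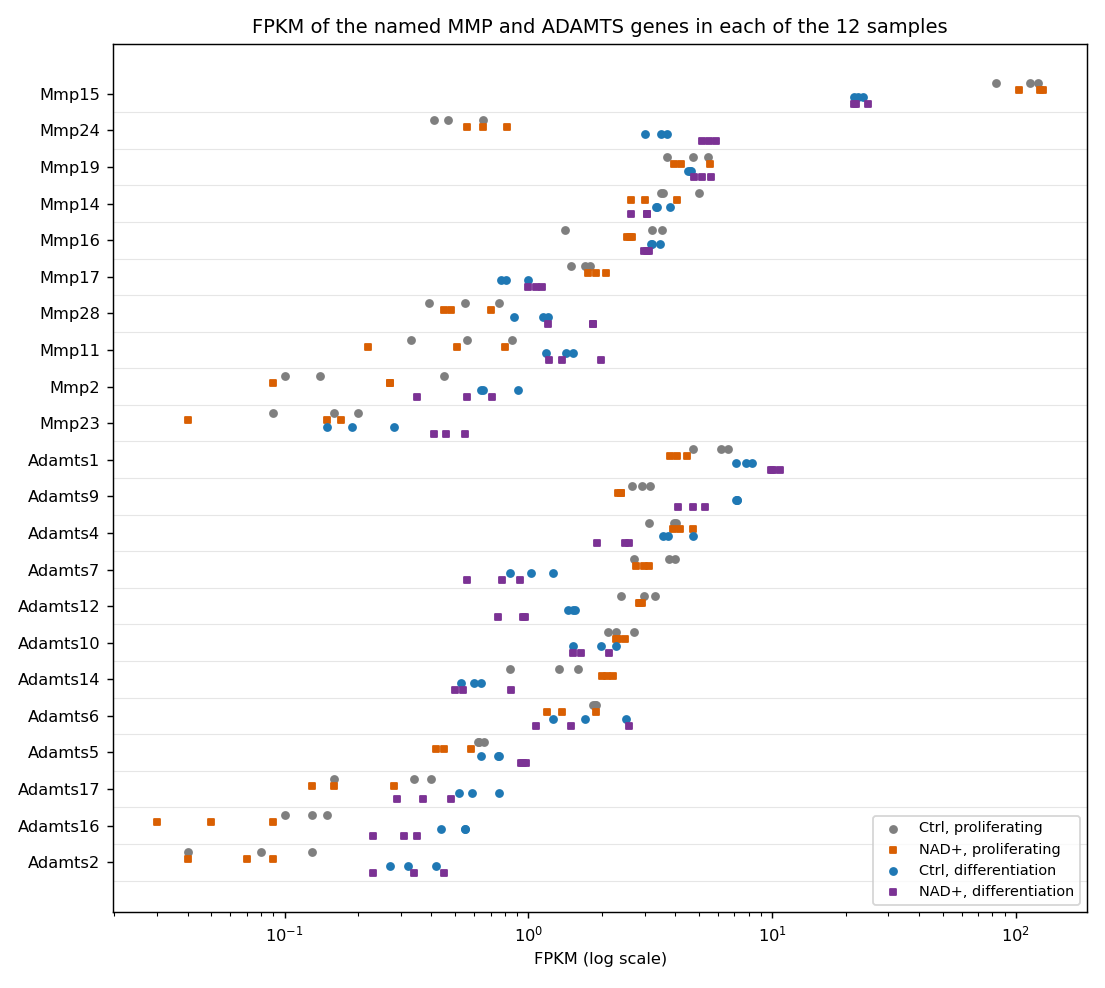
FPKM (x axis, log scale) of the 22 MMP and ADAMTS genes described one by one, with each of the 12 samples as a point, circles for Ctrl and squares for NAD+. Mmp15 lies highest in all samples, and Mmp24 lies at 0.41 to 0.82 FPKM in the 6 proliferating samples and at 3.02 to 5.86 in the 6 differentiation samples.

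The ADAMTS proteases moved in both directions, and their sum was 25.8 ± 3.50 FPKM in proliferating and 28.3 ± 1.71 in differentiation Ctrl cells (SD, n = 3). Adamts9 rose from 2.66, 3.16 and 2.92 FPKM to 7.18, 7.14 and 7.17 (log2 fold change 1.27 ± 0.10, SE; limma adjusted p = 1.787e-06), and Adamts1 rose by 0.41 on the log2 scale. The COMP proteases Adamts7 and Adamts12 fell, by 1.65 and 0.89 on the log2 scale, as did Adamts14, by 0.94. Adamts2, a procollagen-processing enzyme like Adamts14, rose by 1.27 from a mean of 0.0833 FPKM, and Adamts16 and Adamts17 rose by 1.44 and 0.90. Adamts4 and Adamts5 did not pass between Ctrl groups (limma adjusted p = 0.5641 and 0.4569) but did between NAD+ groups, where Adamts4 fell by 0.86 and Adamts5 rose by 0.86. Whether these comparisons differ was tested as the difference of the NAD+ effect between conditions. With limma, 0 of 26 members passed an adjusted p of 0.05, against 91 genes (0.467%), and 6 had an unadjusted p under 0.05 (23.1%, against 15.5% of all genes). The 6 were Adamts1, Timp4, Adamts4, Adamts12, Adamts5 and Mmp23, with differences of 0.89, 0.75, -0.97, -0.71, 0.72 and 1.13 on the log2 scale and limma adjusted p values from 0.05985 to 0.2529. The comparisons of NAD+ and of condition share samples, so their calls are not independent of each other. Of the regulators of these enzymes, 7 rose and 3 fell of 15 tested between Ctrl groups, beside 56.7% of all genes called (25% higher and 31.6% lower), with Pcsk6 (log2 fold change 2.42), Lrp1 (1.90), a receptor that clears proteases and inhibitors, and the membrane-bound MMP inhibitor Reck (1.53) among those that rose.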

How the data were processed

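RNA-seq of 12 mouse aNSPC samples was deposited by the authors as FPKM in 2 tables, 1 per condition, and the columns were matched to samples by title (0 per-sample columns were unmapped). Per the study's methods, libraries were made with a NEBNext Ultra kit, reads were mapped to mm10 with Hisat2 v2.0.5 and uniquely mapped reads were counted with FeatureCounts v2.0.1. The program that made the FPKM values is not given in the sources used here. The tables also hold the authors' own fold changes, p-values and q-values, which were not used.

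The members and gene lists were chosen with earlier results of these data known. A member was described singly when its mean FPKM was at least 1 in a group or its adjusted p was under 0.05 in any comparison. limma 3.58.1 (R 4.3.3) was run on log2(FPKM + 0.1) after dropping genes whose mean FPKM was under 0.1, with a variance trend, two-sided, and Benjamini-Hochberg adjustment over all genes tested. NAD+ comparisons used the 6 samples of a condition. Comparisons of conditions, and the difference of the NAD+ effect, used 1 fit of all 12 samples. Standard errors and 95% intervals come from these fits. The fit was tested on simulated data. Alternatives were 1 or 0.01 added, no filter or a minimum of 1 FPKM, median-ratio and quantile scaling, a replicate block and no moderation. Further ones were the fit of all 12 samples, the study's call rule applied with the limma p, and leaving out each sample. Gene positions and exons came from GENCODE on mm10. Computations used Python 3.11.15 with pandas 2.3.3. Without counts, no counting error can be given, and precision rests on 3 samples per group.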

Additional observations from a re-analysis of the deposited data

Results flagged for a closer look

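In 3 genes, NAD+ and Ctrl samples did not overlap in either condition and lay in opposite order in the 2 conditions, which was the case for 420 of 19498 genes (2.15%). Adamts1 was lower with NAD+ in proliferating cells (3.81 to 4.46 FPKM against 4.75 to 6.62) and higher in differentiation cells (9.9 to 10.75 against 7.11 to 8.26), a difference of the NAD+ effect of 0.89 ± 0.17 (SE) on the log2 scale with a limma adjusted p of 0.05985. Timp4 was lower with NAD+ in proliferating cells (31.98 to 34.36 FPKM against 43.95 to 46.05) and higher in differentiation cells (5.96 to 8.83 against 5.34 to 5.93), a difference of 0.75 ± 0.17 (limma adjusted p = 0.08342). Adamts5 showed the same order, at 0.42 to 0.58 against 0.62 to 0.66 FPKM and at 0.93 to 0.98 against 0.64 to 0.76, with a difference of 0.72 ± 0.22 (limma adjusted p = 0.1814). None of the 3 differences passed the threshold over all genes. Adamts1 and Adamts5 lie next to each other on chromosome 16 (mm10, chr16:85793827-85901828), and both cut aggrecan.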

How the results depend on the processing

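No result past the threshold changed direction under any alternative run. Several results short of it did, such as Mmp16 (log2 fold change 0.04 to -0.36) and Mmp2 (-0.01 to 0.44) under proliferating conditions without Ctrl replicate 1. Each single-gene result past the threshold was read again under each alternative other than the study's rule. Of these readings, 315 of 338 stayed past it with all samples kept and 431 of 474 with 1 sample left out. These shares pool all comparisons, and the NAD+ calls under differentiation conditions held less often, as the counts below show. Under proliferating conditions the 0 members called became 2 in the fit of all 12 samples (735 genes called in all, against 27) and 1 by the study's rule (559 genes), and stayed 0 when any 1 sample was left out (0 to 36 genes). Under differentiation conditions the 7 members called became 1 without moderation (Timp2, with 594 genes called against 1357). They became 1 to 3 with 1 sample left out (328 to 719 genes). By the study's rule all 7 lost their call, and the 1 member called (of 795 genes) was Mmp23, which was not among them. In the 15 alternatives other than the study's rule, Timp2 kept its call in 15, Timp1 in 13, Mmp24 in 10 and Adamts9 in 9. Adamts1 kept it in 6, and Adamts4 and Adamts12 in 4. The 17 members called between Ctrl groups became 11 with a minimum of 1 FPKM, where the 6 others were not tested, and 13 to 18 with 1 sample left out, and the 19 between NAD+ groups became 13 with a minimum of 1 FPKM (7 lost, Adamts10 gained) and 18 to 21 with 1 sample left out. The 0 members with a different NAD+ effect became 1, Adamts1, with 1 added before log2, with a minimum of 1 FPKM, with median-ratio or quantile scaling and without Ctrl, proliferating replicate 1, and ranged from 0 to 1 with 1 sample left out (12 to 195 genes, against 91). The causes of the other changes were not tested.

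Whether same-numbered samples were prepared together is not stated, and the values do not settle it. Deviations from the group means over all genes correlated from -0.06 to 0.107 between same-numbered samples, over 0.1 in 1 of 12 pairs. Within proliferating conditions the mean correlation was 0.058 for same numbers and -0.029 for different numbers. Within differentiation conditions it was 0.042 and -0.021. Deviations from a group mean sum to 0 over its 3 samples. The value for different numbers therefore follows largely from that for same numbers, and is no separate comparison. Such weak correlations over all genes cannot exclude pairing that acts on some genes. Under a block for the replicate number, the 7 members called under differentiation conditions became 3 (Timp1, Timp2 and Mmp24; 758 genes), and the counts of members called in the other comparisons stayed at 0, 17, 19 and 0. The values hold no counts, so depth cannot set a limit for the genes near 0, and 3 samples per group limit what was detectable for changes under 2-fold.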
